A study of Mus musculus with 24 samples.

Results

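Major histocompatibility complex (MHC) class I molecules carry short peptides from inside a cell to its surface. This set of genes covers that route in mouse heart with 10 members, which were chosen by symbol: H2-K1, H2-D1 and B2m for the class I complex, Tap1, Tap2 and Tapbp for peptide transport and loading, Psmb8, Psmb9 and Psmb10 for the immunoproteasome, and Nlrc5 for their transcription. All 10 were found among the 14912 genes of the deposited table, and all 10 passed the filter of a mean of at least 0.1 FPKM, a level per gene scaled to transcript length and to the sequencing depth of the sample. The 12 mice of the hypertensive-LVH group received ANG II (1500 ng/kg/min) over 7 days and the 12 mice of the control group received saline, both through mini-pumps under the skin, and RNA of the left ventricle was sequenced. All were male wild-type C57BL/6J mice of an age not given in the sources used here, and their hearts were flushed with saline. A further 4 samples per group were not analysed here.

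The heavy chains H2-K1 and H2-D1 present the peptide, and B2m (beta-2-microglobulin) is the light chain that every classical class I heavy chain needs. The immunoproteasome subunits replace the constitutive catalytic subunits of the proteasome, Psmb8 in place of Psmb5, Psmb9 in place of Psmb6 and Psmb10 in place of Psmb7. Tap1 and Tap2 together pump the resulting peptides into the endoplasmic reticulum, where Tapbp (tapasin) helps to load them. Nlrc5 switches on class I genes through a promoter module with an X2 motif and a Y box. Interferon gamma raises the whole route in most cell types, and cardiomyocytes are known for low levels of class I.

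Symbols were located in GENCODE vM21 (GRCm38). The sources used here do not state the build behind the deposited values. Of the 10 members, 7 lie in the MHC on chromosome 17: Tapbp (chr17:33915899-33929292), H2-K1 (chr17:33996017-34000347), Psmb9 (chr17:34181987-34187764), Tap1 (chr17:34187553-34197225), Psmb8 (chr17:34197721-34201454), Tap2 (chr17:34203527-34216321) and H2-D1 (chr17:35262730-35267499). B2m lies at chr2:122147686-122153083, Nlrc5 at chr8:94434356-94527272 and Psmb10 at chr8:105935735-105938444. Psmb9 and Tap1 run in opposite directions and share 212 bases, where reads cannot be assigned without strand information. Of the stretches of 100 bases in the longest H2-D1 transcript, 4.64% also occur in transcripts of other genes, among them H2-Q1 and H2-T23. The share was 14% for Tapbp, 5.35% for Tap2 and 1.38% for Psmb8, and it was 0 for the other members.

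Promoter stretches are shown for the members of the class I complex, B2m, H2-K1 and H2-D1, because they share a layout of motifs. RefSeq promoters on GRCm38.p6, 250 bases before to 50 bases after the start site, were at hand for 8 of the 10 members, all but Tap2 and Nlrc5. The following stretches lie before the start site and are written 5′ to 3′ on the strand of the gene. Capitals mark GAAANNGAA (interferon response core), GGGNNTTCC (NF-kB-like), TGACG (X2 motif) and ATTGG (Y box), where N is any base.
B2m, chr2:122147547-122147685, + strand: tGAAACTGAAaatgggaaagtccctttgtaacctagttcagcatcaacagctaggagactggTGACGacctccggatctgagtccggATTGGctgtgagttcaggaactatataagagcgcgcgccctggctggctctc
H2-K1, chr17:34000348-34000467, - strand: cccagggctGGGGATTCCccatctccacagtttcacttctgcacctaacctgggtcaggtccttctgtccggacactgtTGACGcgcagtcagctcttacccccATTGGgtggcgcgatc

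In B2m, H2-K1 and H2-D1, TGACG and ATTGG stood on the strand of the gene with their first bases 25 bases apart. The 3 stretches are set side by side below to show the fixed spacing, with the pair of motifs in capitals. The H2-D1 stretch lies before the RefSeq start site but inside the first exon of 1 longer GENCODE transcript.
B2m, chr2:122147609-122147638, + strand: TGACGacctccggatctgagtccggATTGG
H2-K1, chr17:34000359-34000388, - strand: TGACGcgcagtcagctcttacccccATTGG
H2-D1, chr17:35262993-35263022, + strand: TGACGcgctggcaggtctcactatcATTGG
H2-K1 and H2-D1 shared 23 of the 30 bases, whereas B2m shared 13 with H2-K1 and 12 with H2-D1. This spacing, looked for after the stretches were seen, occurred on either strand in 31 of all 32851 promoters (0.0944%), which belong to 27 genes, and H2-M3 was the only other class I heavy chain gene among them. Searched singly on both strands, TGACG occurred in 5 of the 8 members and 20.8% of all promoters, and ATTGG in 6 of the 8 and 37.4%. GGGNNTTCC occurred in H2-K1 and H2-D1 and in 5.82% of all promoters. GAAANNGAA occurred in B2m (8.56% of all promoters), and TTCNNNGAA (STAT site) in Psmb8 (8.3%). The Tap1 and Psmb9 promoters overlap and held the same TGACG and the same ATTGG, read on opposite strands, without this spacing. Each of these shared sites counts for both members in the counts above. A match, or the lack of one, describes these letters only, and other forms of such elements were not searched for.

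The deposited values had the form of values adjusted per gene, which was inferred from the values alone. Exact ties between samples revealed 4 sets, and for 92.9% of the genes in the table a single scale per set could be resolved. Set 1 held samples 1 to 3 of each group, set 2 held 4 to 6, set 3 held 7 to 9, and set 4 held 10 to 12. For H2-K1 the scale was 0.998, 1.28, 1.30 and 1.31 in the 4 sets, for Psmb10 it was 0.873, 1.08, 1.73 and 1.07, and for Nlrc5 0.867, 1.36, 1.57 and 1.39. The spacing of the values gave each scale for all 10 members. The recovery also fitted a group term per gene, assuming that the adjustment had left this term unscaled. Scale and term together gave the difference between the groups within a set before the adjustment. For H2-K1 in set 4 this difference was -3.45 FPKM as deposited and 10.5 FPKM before the adjustment. The offset of a set was not recovered, so comparisons of single samples across sets hold for the deposited values only. No member had a value below 0. Set 2 stood apart in the series, since leaving it out lowered the number of genes called higher over all genes from 2928 to 1173, against 2223 to 2688 when another set was left out. The calls of the members, the subunit ratios and the counts of the gene lists are therefore also given without it.

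B2m, H2-D1 and Tap1 were higher in the hypertensive-LVH group past the adjusted p-value, and the 7 other members were not. Differences were tested with limma on log2(FPKM + 1) across the 14026 genes that passed the filter, with Benjamini-Hochberg adjustment over all of them and a threshold of 0.05. The 3 called of 10 members stand beside 20.9% of all genes tested called higher. No member was called lower, beside 12.6% of all genes, and all 10 fitted differences were above 0. B2m and Tap1 also passed the fold criterion for DEGs (absolute log2 fold change over 0.5), that is 2 of 10 members beside 4.52% of all genes. The median log2 fold change was 0.20 over the 10 members and 0.05 over all genes tested. In bulk tissue, fewer cells of a type and less RNA per cell cannot be told apart.

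**Figure D1:**
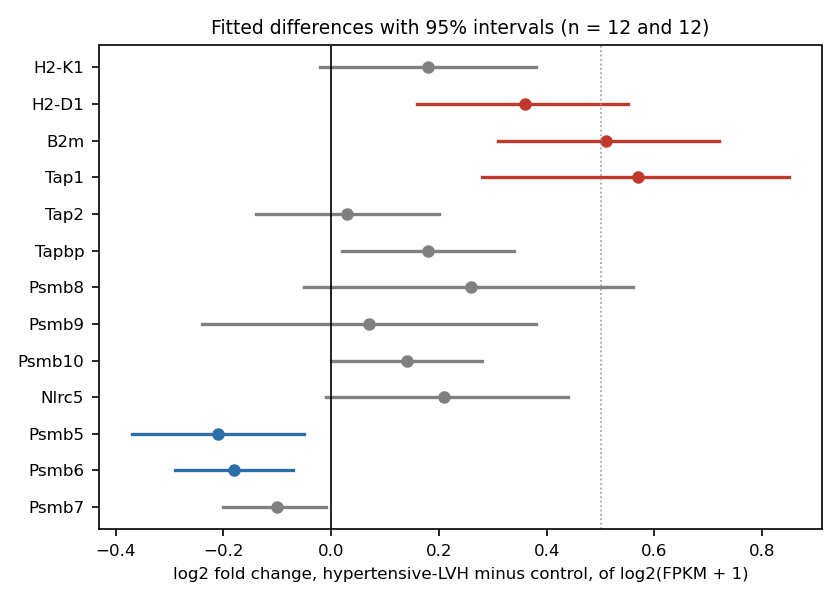
Fitted log2 fold change, hypertensive-LVH minus control, of log2(FPKM + 1) for the 10 members and the 3 constitutive subunits, with 95% intervals from limma (12 and 12 samples). Red marks genes higher and blue genes lower past the adjusted p-value, grey those that missed it, and the dotted line the fold criterion of 0.5, which B2m and Tap1 pass.

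B2m had the highest level of the members in both groups. Its FPKM spanned 482 to 895 (median 594) in hypertensive-LVH samples and 365 to 533 (median 446) in control samples. All 12 hypertensive-LVH samples lay above the control median and 9 of them above the highest control sample, so that the groups overlapped only partly. The mean was 637 ± 147 against 439 ± 52.5 (SD, n = 12 each), a log2 fold change of 0.51 ± 0.10 (standard error; limma, adjusted p = 4.49e-04). The estimate lies close to the fold criterion.

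H2-D1 and H2-K1 had similar control levels, but the test called H2-D1 alone. H2-D1 spanned 161 to 312 FPKM (median 208) in hypertensive-LVH samples and 131 to 207 (median 175) in control samples, and 6 of 12 hypertensive-LVH samples exceeded every control sample. Its mean was 225 ± 45.9 against 174 ± 22.7 (SD, n = 12 each), with a log2 fold change of 0.36 ± 0.09 (standard error; limma, adjusted p = 0.00536). H2-K1 spanned 122 to 272 FPKM (median 177) in hypertensive-LVH samples and 128 to 181 (median 166) in control samples. Of its 12 hypertensive-LVH samples, 6 exceeded every control sample and 1 lay below all of them. The log2 fold change of H2-K1 was 0.18 ± 0.10 (standard error; limma, adjusted p = 0.153). Whether H2-K1 and H2-D1 differed in their response was not tested.

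Tap1, which forms 1 side of the peptide pump, had the largest log2 fold change of the members. It spanned 6.98 to 18.2 FPKM (median 10.0) in hypertensive-LVH samples and 4.44 to 9.69 (median 7.17) in control samples. Of the 12 hypertensive-LVH samples, 11 lay above the control median and 7 above the highest control sample. The mean was 11.5 ± 3.82 against 7.25 ± 1.63 FPKM (SD, n = 12 each), and the log2 fold change was 0.57 ± 0.14 (standard error; limma, adjusted p = 0.00311).

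Tap2, its partner in the pump, spanned 12.0 to 19.6 FPKM (median 15.1) in hypertensive-LVH samples and 10.9 to 17.9 (median 15.2) in control samples. The ranges overlapped almost entirely, and the log2 fold change was 0.03 (95% interval -0.14 to 0.20; limma, adjusted p = 0.808). Its sign turned negative under median-ratio scaling and quantile normalization. Tapbp spanned 39.0 to 68.0 FPKM (median 49.3) against 35.9 to 51.6 (median 45.2), with 5 hypertensive-LVH samples above every control sample. Its log2 fold change was 0.18 (95% interval 0.02 to 0.34; limma, adjusted p = 0.0803).

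The immunoproteasome subunits were not called, although single hypertensive-LVH samples stood high. Psmb8 spanned 5.43 to 18.0 FPKM (median 10.5) in hypertensive-LVH samples and 6.25 to 12.2 (median 8.84) in control samples, so that the lowest and the highest of all 24 samples were both hypertensive-LVH samples. Psmb9 had the same form, 4.10 to 15.8 FPKM (median 8.62) against 5.71 to 11.9 (median 8.33). Psmb10 spanned 28.6 to 50.1 FPKM (median 38.7) against 30.6 to 42.9 (median 34.5), and 11 of 12 hypertensive-LVH samples lay above the control median. The log2 fold change was 0.26 for Psmb8 (limma, adjusted p = 0.177), 0.07 for Psmb9 (adjusted p = 0.755) and 0.14 for Psmb10 (adjusted p = 0.116). For Psmb9 the sign turned negative under quantile normalization.

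Nlrc5, the transactivator of class I genes, had the lowest level of the members. It spanned 1.93 to 5.96 FPKM (median 3.02) in hypertensive-LVH samples and 1.87 to 3.18 (median 2.65) in control samples. Of the hypertensive-LVH samples, 5 exceeded every control sample and the others lay within the control range. The log2 fold change was 0.21 (95% interval -0.01 to 0.44; limma, adjusted p = 0.127).

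**Figure D2:**
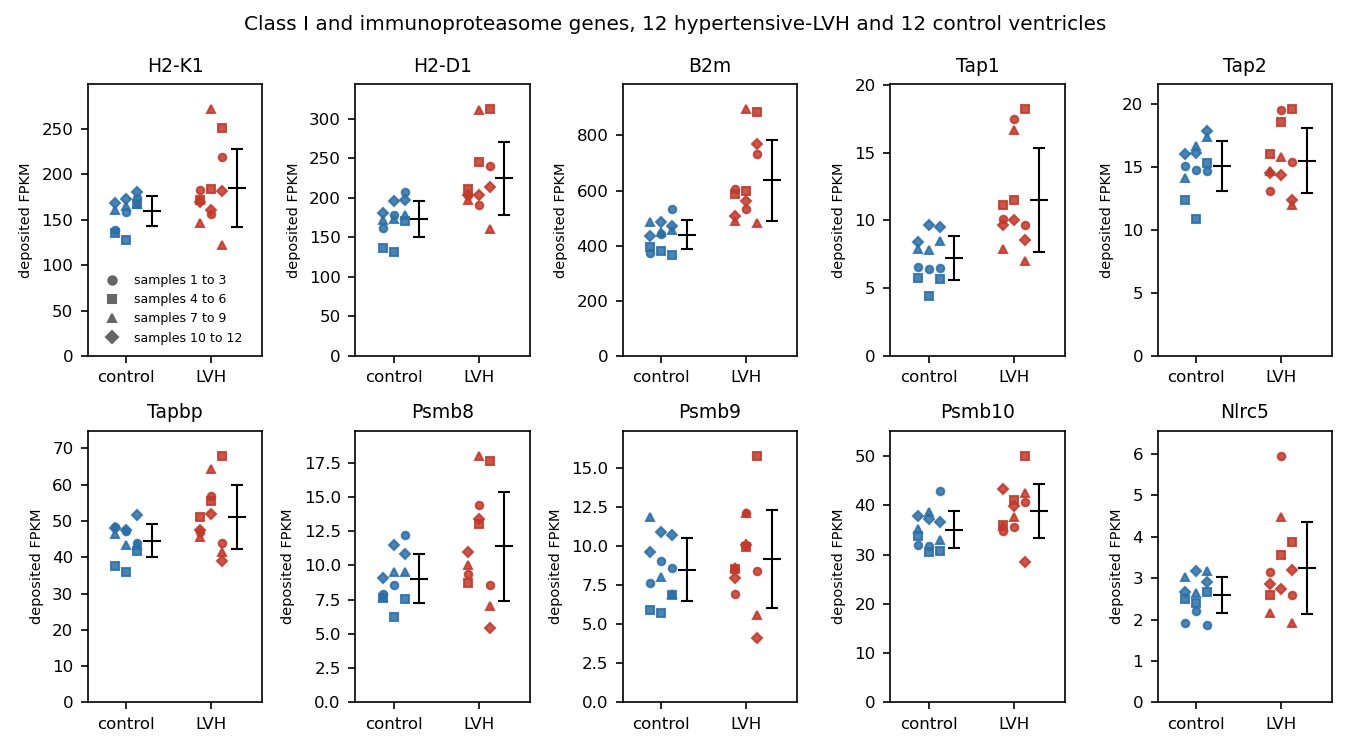
Deposited FPKM of each member by sample, with the control group in blue and the hypertensive-LVH group (LVH) in red. Marker shapes give the set of samples in which the values were adjusted, and the black bar is the mean ± SD of 12 samples. All 12 LVH samples of B2m lie above the control median of 446 FPKM, and Tap2 overlaps almost entirely.

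In the control group the mean level per transcript length fell in the order B2m, H2-D1, H2-K1, Tapbp, Psmb10, Tap2, Psmb8, Psmb9, Tap1 and Nlrc5. The ranges of neighbours were separate between B2m and H2-D1, between H2-K1 and Tapbp, between Psmb10 and Tap2, and between Tap1 and Nlrc5. H2-D1 (174 ± 22.7 FPKM, SD) and H2-K1 (160 ± 16.7) overlapped, as did Tapbp (44.6 ± 4.58) and Psmb10 (35.0 ± 3.73). Psmb8 (9.03 ± 1.79 FPKM), Psmb9 (8.50 ± 2.02) and Tap1 (7.25 ± 1.63) overlapped in turn, and the lowest control value of Tap2 (15.1 ± 2.00) lay below the highest of Psmb8.

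Before the adjustment, 5 of the 10 members were higher in the hypertensive-LVH group past the adjusted p-value, beside 17.9% of the 13335 genes recovered and tested. No member was lower past it, beside 10.3% of all genes, and all 10 recovered differences were above 0. The test was an exact permutation test within the sets, two-sided, on the mean difference in FPKM over the sets, with all 160000 relabelings. The called members were B2m (198 FPKM higher; exact adjusted p = 0.0031), Tap1 (4.54; 0.00519), H2-D1 (53.1; 0.00536), Nlrc5 (0.882; 0.0113) and H2-K1 (30.5; 0.0352). On the deposited FPKM the same test called 3 members, and Nlrc5 and H2-K1 were not among them. The calls of Nlrc5 and H2-K1 thus depend on the assumed form of the adjustment. The recovered differences of Psmb8 (2.57 FPKM), Psmb9 (0.812), Psmb10 (3.94), Tapbp (6.49) and Tap2 (1.08) missed the threshold, with exact adjusted p from 0.128 to 0.659.

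Set 2 held the largest deposited log2 difference for 9 of the 10 members, all but Nlrc5. For Tap1 the log2 difference was 0.80, 1.19, 0.26 and 0.03 from set 1 to set 4. For Psmb9 it was 0.08, 0.76, -0.05 and -0.52 in the same order, so that the sets pointed in both directions. B2m kept 0.47, 0.84, 0.36 and 0.38, and its recovered differences of 171, 308, 151 and 161 FPKM were all above 0. H2-D1 and Tap1 were likewise higher in 4 of 4 sets on both scales.

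The test of the difference among the sets, a limma F test of the interaction of group and set, called 0 of the 10 members beside 7.49% of all genes tested. The unadjusted p was under 0.05 for 4 members, and the adjusted p ran from 0.0578 (Tap2) to 0.562 (B2m). Without set 2, 1 member was past the adjusted p-value, beside 8.36% of all genes. That member was B2m, with a log2 fold change of 0.40 (limma, adjusted p = 0.0146). H2-D1 had 0.21 (adjusted p = 0.106) and Tap1 0.36 (adjusted p = 0.0798) without this set, and Tap2 and Psmb9 became negative (-0.12 and -0.16). On the recovered differences B2m alone was past the threshold without set 2 (161 FPKM; exact adjusted p = 0.0325), beside 5.92% of all genes.

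**Figure D3:**
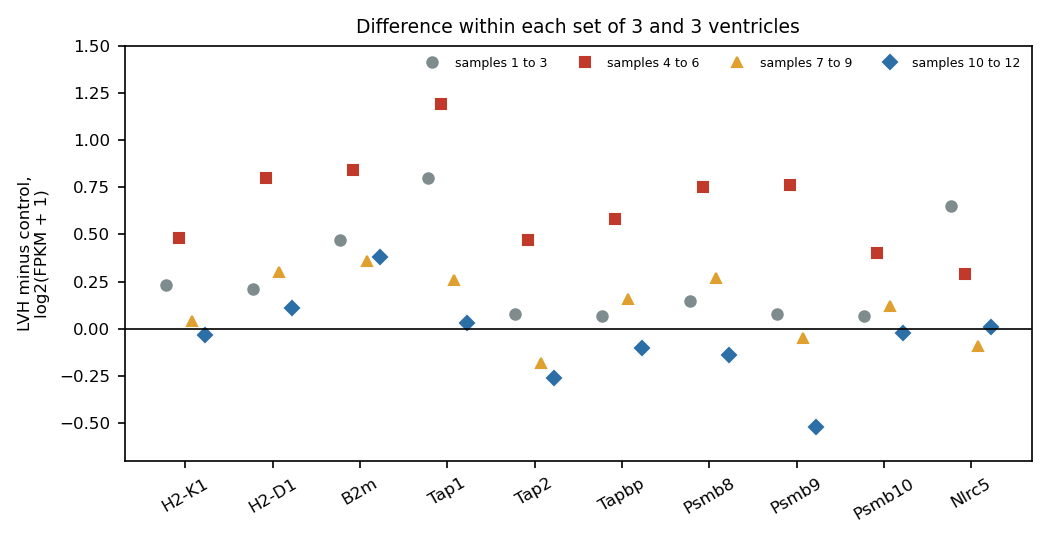
Difference of the mean log2(FPKM + 1), hypertensive-LVH minus control, within each set of 3 and 3 samples, for the 10 members. The red squares of set 2 (samples 4 to 6) are highest for every member but Nlrc5, and B2m is the member whose 4 points all lie at or above 0.36.

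The members varied together within the groups to differing degrees. With the means of group and set removed from log2(FPKM + 1), Pearson r between members ran from -0.06 (Psmb10 with Nlrc5) through a median of 0.57 to 0.94 (H2-K1 with H2-D1) over 45 pairs and 24 samples. B2m followed H2-K1 at r = 0.87, and Psmb9 followed Tapbp at r = 0.90 and its divergent neighbour Tap1 at r = 0.80. Psmb10, which lies outside the MHC, had its highest r with Psmb8 (0.60), against 0.24 with B2m and 0.29 with H2-K1. B2m in turn had 0.31 with Tap2, 0.39 with Psmb9 and 0.40 with Psmb8. These are descriptions over samples that share a library per point, with no test.

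The average deposited level of the members varied among the ventricles of the hypertensive-LVH group. Averaged over the 10 members, sample 6 lay 0.75, sample 8 lay 0.65 and sample 2 lay 0.44 above the control mean of log2(FPKM + 1). In sample 6 all 10 members exceeded every control sample, and in sample 8 this held for 8 members. In samples 7 and 9, 0 members exceeded every control sample, and sample 9 had the lowest average of its group, -0.15. Control samples averaged from -0.34 (sample 5) to 0.21 (samples 11 and 12). Samples 1, 4, 7, 9, 10 and 12 of the hypertensive-LVH group lay below this highest control average. Because the offsets of the sets are unknown, this order of samples from different sets may partly reflect the adjustment, which was not tested.

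Sample 12 of the hypertensive-LVH group divided the route. It had the lowest deposited value of all 24 samples for Psmb8 (5.43 FPKM), Psmb9 (4.10) and Psmb10 (28.6), and its Tapbp (39.0) was the third lowest. Its B2m of 770 FPKM was the third highest of all samples, and its H2-D1 of 214 and Nlrc5 of 3.19 FPKM ranked 20 of 24 from the lowest. Psmb8, Psmb9, Psmb10, Tap2 and Tapbp of this sample were also the lowest of the 6 samples of its set before the adjustment. This sample was singled out after its values were seen.

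The catalytic subunits that the immunoproteasome replaces were described beside it. Of Psmb5, Psmb6 and Psmb7, 2 were lower past the adjusted p-value, Psmb5 with a log2 fold change of -0.21 (limma, adjusted p = 0.0349; 70.0 ± 10.8 against 80.7 ± 9.26 FPKM, SD) and Psmb6 with -0.18 (adjusted p = 0.0128; 96.7 ± 9.39 against 110 ± 10.4 FPKM). Psmb7 had -0.10 (adjusted p = 0.0935). Of the 100-base stretches of the longest Psmb5 transcript, 24.9% occur in transcripts of other genes as well. With the set as a term, and with the replicate number as a block, 1 of the 3 was lower, and Psmb5 had an adjusted p of 0.0548 with the set as a term (limma). Without set 1, 1 was lower, and without set 4, 0 were past the threshold by limma (1 at an unadjusted p under 0.05). By limma without set 2, 0 of the 3 were past the threshold and 2 were lower at an unadjusted p under 0.05.

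The ratio of an inducible subunit to the constitutive subunit it replaces was compared for the 3 pairs on deposited values. Each gene had its own scale per set, for example 0.879 and 0.797 for Psmb8 in sets 1 and 2, and 0.696 and 1.21 for Psmb5. The set offsets were not recovered, so a ratio is not the measured share of a subunit within a sample. Ratios before the adjustment are not given. As a percent of (FPKM + 1), Psmb8 to Psmb5 spanned 11.5 to 30.3 (median 15.9) in hypertensive-LVH samples and 9.83 to 14.5 (median 12.6) in control samples, with 7 of 12 samples above every control sample. The log2 ratio was higher by 0.47 (two-sided permutation test, p = 0.00328, adjusted over the 3 ratios 0.00984). Psmb10 to Psmb7 spanned 27.6 to 57.7 percent (median 37.4) against 28.0 to 35.9 (median 33.7), with 8 of 12 samples above every control sample. Its log2 ratio was higher by 0.24 (permutation test, p = 0.00718, adjusted 0.0108). Psmb9 to Psmb6 spanned 6.06 to 19.1 percent (median 9.67) against 6.01 to 12.7 (median 8.41), and the difference of 0.25 missed the threshold (permutation test, p = 0.161).

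When labels were exchanged inside each set alone, the exact permutation p was 0.00445 for Psmb8 to Psmb5, 0.0118 for Psmb10 to Psmb7 and 0.193 for Psmb9 to Psmb6. When set 2 was left out, the differences were 0.31 (permutation test, p = 0.0576), 0.13 (p = 0.128) and -0.0017 (p = 0.993) in the same order.

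**Figure D4:**
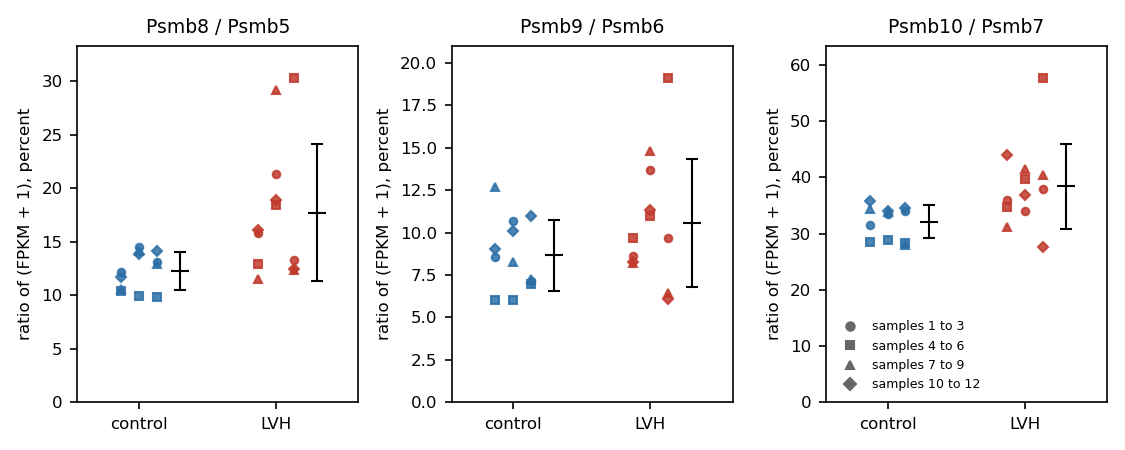
Ratio of each immunoproteasome subunit to the constitutive subunit it replaces, as a percent of (deposited FPKM + 1), by sample. Marker shapes give the set of samples and the black bar is the mean ± SD of 12 samples. For Psmb8 to Psmb5, 7 of 12 LVH samples lie above the highest control value of 14.5%.

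The neighbouring parts of the route were described by gene lists, each by its counts and its median log2 fold change beside the median of 0.05 over all genes. Over all genes tested 20.9% were called higher and 12.6% lower, and the counts of the lists stand beside these shares. Without set 2 the share called higher was 8.36%. The share called lower in that fit is not given here, so counts of lower genes without set 2 have no share beside them. Of 14 tested other class I heavy chains, 4 were higher past the adjusted p-value (median 0.09) and no gene was lower, also at an unadjusted p under 0.05. They included H2-T22 (0.40; limma, adjusted p = 0.00906), H2-T23 (0.37; adjusted p = 0.0241), the ligand of an inhibitory natural killer cell receptor, and Mr1 (0.32; adjusted p = 0.0218), which presents vitamin metabolites. H2-T22 and H2-T23 differed among the sets (limma F test of the interaction of group and set, adjusted p = 0.0483 and 0.048). Mr1 did not pass this test (adjusted p = 0.625). Reads of closely related heavy chain genes can be shared. Of 15 genes of peptide loading and trimming, 3 were higher (median 0.05), the translocon subunit Sec61a1 (0.31; adjusted p = 0.00502), the peptidase Tpp2 (0.24; adjusted p = 0.0105) and the disulfide isomerase Pdia3 (0.20; adjusted p = 0.034). With the replicate number as a block, and without set 1, 2 heavy chains were higher. The 3 of 15 loading genes are close to the share over all genes. By limma without set 2, 0 heavy chains (also 0 at an unadjusted p under 0.05) and 1 loading gene were higher, and 1 heavy chain was lower.

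The proteasome lists held more lower than higher genes. Of 9 genes of proteasome activators and assembly, 4 were lower (median -0.10) and no gene was higher, also at an unadjusted p under 0.05. The activator subunit Psme1 had -0.32 (limma, adjusted p = 3.7e-04), and the assembly chaperones Psmg1 and Psmg2 had -0.27 (adjusted p = 0.00503) and -0.23 (adjusted p = 0.00582). Psme2, with which Psme1 forms the interferon-inducible activator, had -0.05 (adjusted p = 0.549). Of 11 other core subunits, 3 were lower and 1 higher (median 0.01), with Psmb3 at -0.26 (adjusted p = 0.0143), Psmb2 at -0.22 (adjusted p = 0.0102) and Psma3 at 0.16 (adjusted p = 0.0028). In the fit without set 2, 3 of the 9 activator and assembly genes and 1 of the 11 core subunits were lower, and 1 core subunit was higher.

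Of the 9 regulators that bind class I and class II promoters, 1 was higher and 1 lower (median 0.08), each a smaller share than over all genes. Rfxank, a subunit of the RFX factor that binds the X box of these promoters, had 0.39 (limma, adjusted p = 1.74e-04; 12.0 ± 1.66 against 8.95 ± 1.13 FPKM, SD), and all 12 hypertensive-LVH samples lay above the control median. Nfyc, a subunit of the factor that binds the Y box, had -0.16 (adjusted p = 0.0178), a call lost with the replicate number as a block. The transactivator of class II genes, Ciita, had 0.23 (adjusted p = 0.0685). When set 2 was dropped from the fit, 1 of the 9 was higher, and 0 were lower (1 at an unadjusted p under 0.05).

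Genes of interferon signaling were called in both directions. Of 23 tested genes of interferon and NF-kB signaling, 7 were higher and 1 lower (median 0.15), led by the transcription factors Irf8 (0.73; limma, adjusted p = 4.13e-04) and Irf7 (0.70; adjusted p = 9.21e-04) and the receptor Tnfrsf1b (0.48; adjusted p = 0.00604). Irf1, a known activator of the immunoproteasome genes, had -0.19 (adjusted p = 0.218). The 2 chains of the interferon gamma receptor were called in opposite directions, Ifngr1 with 0.29 (adjusted p = 0.00471) and Ifngr2 with -0.38 (adjusted p = 0.00191). The Ifngr1 difference was 0.14, 0.77, 0.16 and 0.11 from set 1 to set 4. It differed among the sets (limma F test of the interaction of group and set, adjusted p = 0.0351), as did Tnfrsf1b (0.0412). Ifngr2 did not pass this test (adjusted p = 0.723). Of 24 interferon-stimulated genes, 8 were higher (median 0.31) and no gene was lower, also at an unadjusted p under 0.05. They were led by the chemokine Cxcl10 (1.02; adjusted p = 6.39e-04), Ifit1 (0.63; adjusted p = 0.00356) and Ifit3 (0.62; adjusted p = 0.00888). With set 2 left out, the 2 lists held 2 higher genes each, and the signaling list 1 lower gene. After quantile normalization 4 interferon-stimulated genes were higher.

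The marker lists of leukocytes differed in how many of their genes were called. All 8 macrophage markers were higher past the adjusted p-value (median 0.63), and their summed level spanned 237 to 701 FPKM in hypertensive-LVH samples and 172 to 378 in control samples. Of 6 pan-leukocyte markers, 4 were higher (median 0.60), with sums from 54.4 to 169 FPKM against 40.9 to 83.9. Ptprc, which encodes the common leukocyte antigen CD45, had 0.16 (limma, adjusted p = 0.259). Of 12 tested markers of CD8 T and natural killer cells, 4 were higher (median 0.17), and Cd8a itself had 0.18 (limma, adjusted p = 0.0618). The sums of this list ran from 5.50 to 22.3 FPKM against 3.83 to 9.14. In both groups the largest single part of these sums was, on average, a chemokine gene, so they do not reflect the T cell genes evenly. Of 6 class II genes 1 was higher (median 0.47), with sums from 259 to 945 FPKM against 181 to 551. Of 3 tested B cell markers, 1 was lower (median -0.03), with sums from 0.27 to 1.81 FPKM against 0.75 to 2.04.

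By limma without set 2, 0 of the 8 macrophage markers were past the threshold (3 at an unadjusted p under 0.05), whereas 2 of the 6 pan-leukocyte markers and 2 of the 12 markers of CD8 T and natural killer cells were higher. Of the 6 class II genes, 0 were past it in that fit (also 0 at an unadjusted p under 0.05), and 1 of the 3 B cell markers was lower.

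Among the other cell types, fibroblast markers were called only higher and cardiomyocyte markers only lower. Endothelial markers had 1 higher and 1 lower of 6 (median 0.01), close to the shares over all genes, with sums from 325 to 506 FPKM against 328 to 418. Fibroblast markers had 2 higher of 5 (median 0.32), with sums from 419 to 1289.9 FPKM against 129 to 556. Col1a1, the main collagen chain in this list, had 3 values below 0, all in control samples of set 2, which were counted as 0 in the sums. Cardiomyocyte markers, abundant in every sample, had 3 lower of 6 (median -0.27), with sums from 23786.1 to 32312.1 FPKM against 30609.9 to 36953.5. With group and set removed, the mean of the members followed the mean of the pan-leukocyte markers at r = 0.79, the class II genes at 0.83, the CD8 T and natural killer cell markers at 0.80, the macrophage markers at 0.75, the B cell markers at 0.64, the fibroblast markers at 0.62, the endothelial markers at 0.11 and the cardiomyocyte markers at -0.59 (24 samples, a description). The part of these cells in the members' levels was not tested. Lists that mark no cell type gave r of 0.87 (other class I heavy chains), 0.85 (interferon and NF-kB signaling) and 0.81 (interferon-stimulated genes). The remaining lists gave 0.66 (peptide loading and trimming), 0.64 (promoter regulators), 0.36 (proteasome activators and assembly), 0.11 (other core subunits) and -0.13 (constitutive catalytic subunits). After removal of set 2, limma called 1 endothelial marker higher and 1 lower, 1 fibroblast marker higher and 2 cardiomyocyte markers lower.

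**Figure D5:**
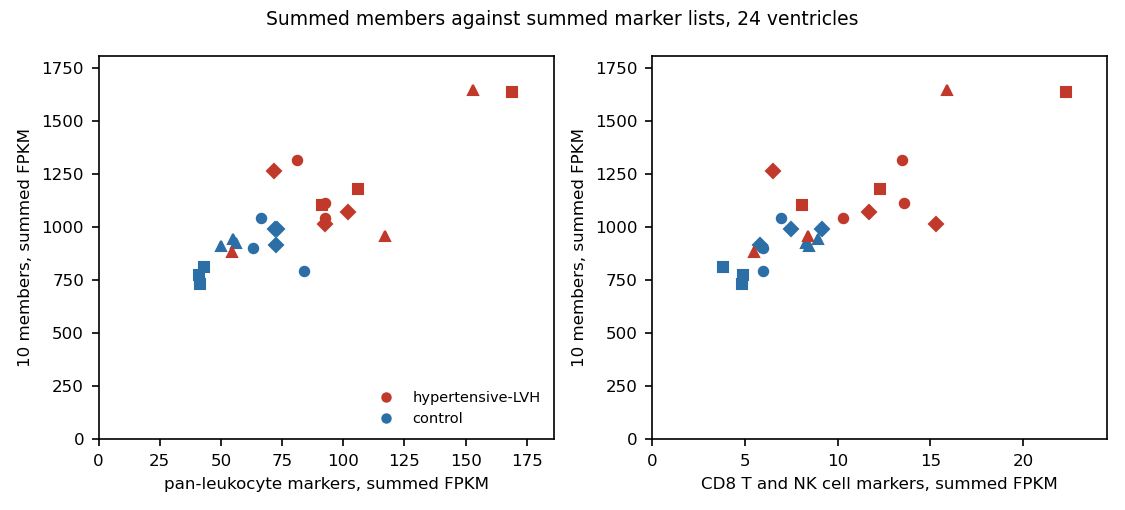
Summed deposited FPKM of the 10 members against that of the pan-leukocyte markers (left) and of the CD8 T and natural killer (NK) cell markers (right), 1 point per ventricle, with the shapes of the sets as in the plot of the members by sample. The ventricles with the highest sums of members, LVH samples 8 (1646.4 FPKM) and 6 (1639.7 FPKM), also have the 2 highest sums of both marker lists. On average the largest single part of the CD8 T and NK sums is a chemokine gene.

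Outside all lists, the genes whose pattern was most like the mean of the members, by Pearson r over the 24 samples with group and set removed, were Lgals3bp (r = 0.917), Parp12 (0.909), Samhd1 (0.878), Ifi47 (0.874) and Ccdc88b (0.846). Of these, Lgals3bp separated the groups, with 52.2 to 111 FPKM in the hypertensive-LVH group and 30.6 to 51.4 in the control group (log2 fold change 0.72; limma, adjusted p = 3.8e-05). Parp12 had 0.06 (limma, adjusted p = 0.578). Ifi47 had 0.57 (adjusted p = 0.00979), Ccdc88b 0.32 (adjusted p = 0.008) and Samhd1 0.19 (adjusted p = 0.0704).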

How the data were processed

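Left ventricles of 24 mice, 12 per group, were sequenced as oligo(dT)-selected RNA. The authors deposited 1 value per gene and sample, named FPKM. Their processing notes name Bowtie2, HISAT and RSEM; versions, build and annotation are not given in the sources used here. Of the values, 2741 (0.766%) are negative, as adjusted values can be, so no depth can be read from them. Sums of values spanned 460715 to 515185 (hypertensive-LVH) and 482319 to 567727 (control), and correlations between samples from 0.939 to 0.996. The extraction text of the labels names cells of another origin than heart, while cardiomyocyte markers were abundant in every sample.

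Values below 0 were replaced by 0, and log2(FPKM + 1) of genes with a mean of at least 0.1 was tested with limma 3.58.1 (R 4.3.3), with an intensity trend. A tie in 100 genes or more put samples into the same set. Within a pair of a set 218 to 546 genes were tied, and between sets at most 12. Scales and a group term per gene were recovered from steps of 0.01 FPKM. A single solution was found for 13854 genes (92.9%), with 818 without a step and 240 with several solutions. Differences before the adjustment had an exact test, with a smallest p of 1.25e-05. Ratios were permuted 100000 times. Other steps used Python 3.11.15 (numpy 2.4.6, pandas 2.3.3, scipy 1.17.1), and the fits and the recovery were tested on simulated data. The recovery assumed an adjustment that itself used the groups, which tests on deposited values leave out.

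The members and gene lists were chosen with earlier results of these data known. Named are all members, up to 3 genes with the largest called change per list, the constitutive partners, 5 genes by likeness, and single genes of the lists (Irf1, Ifngr1, Ifngr2, Psme2, Ciita, Ptprc, Cd8a) chosen after their values were seen. A single gene of the lists is not reported here by name. Alternatives tried were median-ratio scaling and quantile normalization, a pseudocount of 0.1, a minimum mean of 1 or none, a fit without trend, the Wilcoxon rank-sum test, linear FPKM, a replicate block, a set term, and leaving out each sample or set.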

Additional observations from a re-analysis of the deposited data

How the results depend on the processing

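B2m, H2-D1 and Tap1 stayed past the adjusted p-value under either scaling, without a trend or a filter, with a minimum mean of 1, a pseudocount of 0.1, the set as a term, linear FPKM or the Wilcoxon rank-sum test. The number of members past it was 1 without set 2 and ran from 3 to 5 when single samples were left out. The number that met both DEG criteria was 1 after median-ratio scaling, after quantile normalization and without set 1, 0 without set 2, and 1 to 2 without single samples. Of B2m and Tap1, Tap1 missed the fold criterion after quantile normalization and without set 1 (0.49 each), and B2m after median-ratio scaling (0.46).

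Tap2 reversed to -0.02 after median-ratio scaling, -0.03 after quantile normalization and -0.12 without set 2, and to between -0.01 and -0.0014 without LVH sample 2, LVH sample 6 (-0.0022) or control sample 5. Leaving out single samples gave Tap2 up to 0.06. Psmb9 reversed to -0.009 after quantile normalization, -0.0043 without LVH sample 6 (single samples gave up to 0.15) and -0.16 without set 2. The ratio of Psmb9 to Psmb6 was -0.0017, that of Psmb8 to Psmb5 0.31 and that of Psmb10 to Psmb7 0.13 without set 2. The cause was not tested. Without set 2 fewer samples enter each fit, and the genes called higher among all tested dropped from 2928 to 1173, against 2223 to 2688 without another set. On recovered differences 5 members were called, against 3 with deposited FPKM and 1 without set 2.

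Whether the replicate numbers pair the samples could not be decided. With the group means removed, same-numbered samples correlated at -0.557 to -0.001, and 0 of 12 correlated best with their own number. Same-numbered samples share a set, and the deposited values had been adjusted within each set. These correlations therefore cannot show whether the samples are paired. With the replicate number as a block, 3 members were past the adjusted p-value and 2 met both criteria, the adjusted p of B2m being 0.00424 and that of Tap1 0.0222 (limma). With the block, 3 of the interferon-stimulated genes were higher against 8 without it, 4 against 7 of the signaling genes and 2 against 4 of the other heavy chains. Depth is unknown, so no limit from counts can be given.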
